A study of Mus musculus with 16 samples.

Results

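The genes described here are the 110 protein-coding mouse genes, of 45706 gene IDs counted, whose symbols mark them as parts of the oxidative phosphorylation machinery. They were chosen by symbol alone (Ndufa, Ndufb, Ndufc, Ndufs, Ndufv, Sdha to Sdhd, Uqcr, Cox4 to Cox8 and Atp5 in the nuclear genome, and mt-Nd, mt-Co, mt-Cytb and mt-Atp in the mitochondrial genome), and the rule uses no measured value, although the set was picked with earlier results of these data known. Of the 110, 96 encode subunits: 83 are nuclear and 13 are mitochondrial. Another 13 carry a subunit prefix but encode assembly factors or the coupling factor Atp5s, and Ndufa4l2 is a paralog of a complex IV subunit. By complex, the members were 36 nuclear and 7 mitochondrial genes for complex I, 4 nuclear genes for complex II, 8 and 1 for complex III, 19 and 3 for complex IV, and 16 and 2 for complex V. Ndufa4 was counted with complex IV, where its protein resides.

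Oxidative phosphorylation passes electrons from NADH (complex I) and succinate (complex II) through ubiquinone, complex III and cytochrome c to oxygen at complex IV, and complex V uses the resulting proton gradient to make ATP. Complexes I, III, IV and V are mosaics: mitochondrial DNA encodes some of their membrane-embedded subunits, and nuclear genes encode the others and all of complex II. The mitochondrial mRNAs are cut from long transcripts made by a dedicated polymerase inside the organelle, so the genomes are transcribed separately. Blood stem cells in their resting state are known for relying comparatively little on this route to ATP.

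The series concerned haploinsufficiency of Gata2, a transcription factor needed by blood stem cells, in a transplantation setting in which a small number of sorted cells was given to irradiated wild-type mice. RNA from bone marrow was sequenced in 16 libraries in 6 groups. LSK cells, the stem and early progenitor fraction that lacks lineage markers and carries Sca-1 and Kit, gave 3 libraries labelled Day0_Gata2, 2 labelled Day0_WT, 2 labelled Day2_Gata2 and 3 labelled Day2_WT. Marrow cells carrying CD45.2, an allelic form of a leukocyte surface protein, gave 3 libraries labelled Week2_Gata2 and 3 labelled Week2_WT. The labels give no age or strain and do not describe the Gata2 allele. They do not say what the cells underwent between Day0 and Day2, or how many animals gave a group. By the level of Ddx3y, a Y chromosome gene, Day0_WT replicate 2, Day0_Gata2 replicate 3 and Week2_Gata2 replicate 3 read as female. All other libraries read as male, so Day0_WT, Day0_Gata2 and Week2_Gata2 each drew on more than 1 animal. For the other groups the number of animals is not known. The p-values therefore set a difference between groups against the spread of libraries within groups, estimated over all groups of a fit. That spread may in part be technical. In such bulk samples fewer cells of a type and less RNA per cell cannot be told apart.

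Total counts per library were 19.6 to 68.3 M reads in the LSK groups and at least 177 M reads at Week2. In LSK cells Gata2 itself was not lower in the libraries named for it: its level was 610.3, 752.1 and 676.6 CPM (counts scaled to a fixed library total) in Day0_Gata2 against 445.5 and 329.3 CPM in Day0_WT, and 490.4 and 736.5 CPM in Day2_Gata2 against 291.0, 262.3 and 259.0 CPM in Day2_WT. At Week2 the levels overlapped, with 27.4, 12.4 and 7.86 CPM in Week2_Gata2 against 11.9, 14.5 and 11.1 CPM in Week2_WT. The groups are therefore called the libraries labelled Gata2 and WT. Day0_WT replicate 1 stood apart, with a correlation of 0.878 to its partner and the smallest total, 19.6 M reads. It read as male and its partner as female, while all Day2 libraries read as male. Its summed levels were 1799 CPM for neutrophil, 1473 for monocyte and macrophage and 147.3 for B cell markers. Its partner had 4591, 594.8 and 59.1 CPM for the same markers. The part of these marker differences in its subunit levels was not tested. For members described below, calls in WT libraries that were lost, or folds that moved by more than 1.5 times, without Day0_WT replicate 1 are named beside the results. For gene lists outside the members, losses are given for the list and only for some genes by name. The summed level of 8 LSK and stem cell markers was 2051 to 2309 CPM in Day0_Gata2, 1867 to 1894 CPM in Day0_WT, 1283 to 1495 CPM in Day2_Gata2, 1411 to 1471 CPM in Day2_WT, 64.4 to 169.8 CPM in Week2_Gata2 and 76.7 to 114.2 CPM in Week2_WT. No marker of that list was at 0 in any group.

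Before levels are compared, the mitochondrial sequences bear on what a count means. Several mitochondrial mRNAs have a second, annotated copy in a stretch of chromosome 1, and reads from such regions can be assigned to either place. Over its whole length, the copy of mt-Co2, which encodes a catalytic subunit of complex IV, matched the mRNA at 681 of 681 bases. The copies of mt-Atp6 (678 of 678 bases), mt-Co3 (783 of 783) and mt-Nd4l (294 of 294) were also identical, and that of mt-Nd3 matched at 344 of 345 bases. The first 60 bases of mt-Co2 (chrM:7013-7072, plus strand) and its copy Gm28661 (chr1:24615506-24615565, minus strand), and of mt-Nd3 (chrM:9459-9518, plus strand) and its copy Gm28438 (chr1:24613060-24613119, minus strand), are shown from the GENCODE M21 transcripts, build GRCm38. The capital marks T3C, the single substitution between mt-Nd3 and its copy, counted from the first base of mt-Nd3.
mt-Co2: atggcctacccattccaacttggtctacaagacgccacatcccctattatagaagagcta
Gm28661: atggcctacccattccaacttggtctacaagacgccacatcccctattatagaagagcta
mt-Nd3: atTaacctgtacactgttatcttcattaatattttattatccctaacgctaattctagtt
Gm28438: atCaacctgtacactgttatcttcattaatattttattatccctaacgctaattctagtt

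The share of 50-base windows that also occur in another annotated transcript was 100% for mt-Co2, 99.9% for mt-Co3, 99.5% for mt-Atp6, 98.8% for mt-Nd4l and 98% for mt-Nd3. It was 62.2% for mt-Nd4 and 51.1% for mt-Co1, under 10% for mt-Nd2 (8.19%) and mt-Nd5 (7.61%), and 0% for mt-Nd1, mt-Nd6, mt-Cytb and mt-Atp8. The 5 mRNAs with at least 98% of their windows shared were counted at low levels. Per kilobase of transcript, as the median of the 16 libraries, mt-Cytb had 927 CPM per kb, mt-Co1 825.9, mt-Nd1 477.7, mt-Nd5 203.6, mt-Nd4 158.7, mt-Nd2 114.5 and mt-Nd6 104.8 CPM per kb. By contrast mt-Co3 had 18.9 CPM per kb, mt-Atp6 7.97, mt-Co2 4.49, mt-Nd3 0.344 and mt-Nd4l 0.316 CPM per kb. Also low was mt-Atp8, a short reading frame of 204 bases that overlaps mt-Atp6, with 0.203 CPM per kb and no window shared with an annotated transcript. Unannotated sequence was not searched. This includes any between the copies of mt-Atp6 (Gm10925, ending at chr1:24614651) and mt-Co2 (Gm28661, starting at chr1:24614885). Whether mt-Atp8 has a copy there is therefore not known. How the counting treated reads that match more than 1 place is not given in the sources used here, and its part in these levels was not tested.

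The 5 mRNAs with shared sequence took 0.661%, 0.808% and 0.692% of all mitochondrial mRNA counts in Day0_Gata2 and 0.708% and 0.71% in Day0_WT. They took 0.164% and 0.140% in Day2_Gata2, 0.174%, 0.152% and 0.214% in Day2_WT, 1.02%, 1.15% and 1.02% in Week2_Gata2 and 1.11%, 1.06% and 1.05% in Week2_WT. This share was thus lowest in the 5 Day2 libraries and highest in the 6 Week2 libraries, with no overlap between times and little spread within a time. The sum of mitochondrial counts in every library consisted almost wholly of mt-Co1, mt-Cytb and mRNAs of complex I.

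**Figure D1:**
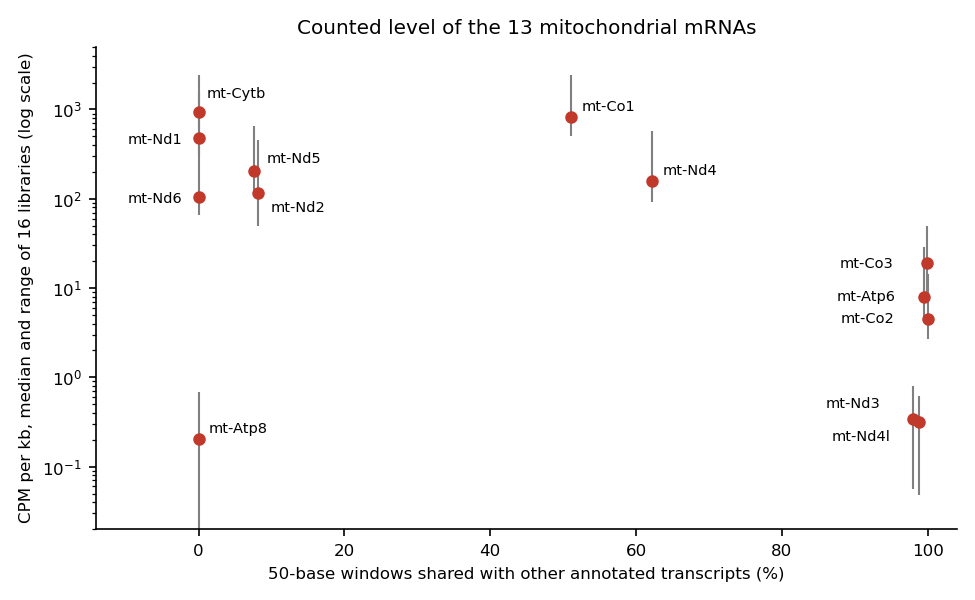
Each point is a mitochondrial mRNA: the horizontal axis gives the percentage of its 50-base windows shared with another annotated transcript and the vertical axis, on a log scale, its counted level in CPM per kb, with the point at the median and the line over the range of the 16 libraries. The 5 mRNAs at 98% or more lie at 18.9 CPM per kb or less, and mt-Atp8 is the low point at 0%.

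For the nuclear subunits, the sequences in front of the genes were searched for short motifs. RefSeq promoter windows (build GRCm38.p6, 250 bases before to 50 after the start) were matched by gene ID to 68 of the 83 nuclear subunits. The letters GCGCANGCG, within the binding motif of nuclear respiratory factor 1, occurred on either strand in 19 of the 68 windows (27.9%), against 6.49% of 27025 promoters. The letters CCGGAAG, a motif of ETS-family factors such as the GABP complex, occurred in 15 (22.1%, against 9.14%), and AAGATGGCG, the motif of YY1, in 6 (8.82%, against 1.48%). The general promoter motifs GGGCGG (28 of 68, 41.2%, against 35.9%) and CCAAT (29 of 68, 42.6%, against 38%) occurred in shares nearer to those of all promoters. The letters CCGGAAG and AAGATGGCG can overlap at AAG. Each of these motifs, taken singly, was missing from most of the 68 windows. The comparison set was all promoters, not promoters of like base content, and no test was run. The length of the NRF1 motif was chosen after the data were seen. A match is a run of letters and not a measured binding site.

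Stretches free of annotated exons are shown for 4 genes called higher at Day2 in the WT-labelled libraries, 2 with matches and 2 that were also called in the Gata2-labelled libraries and had none of the first 3 motifs in the stretch shown. All 4 lie on the minus strand and are written 5′ to 3′ along the gene: Cox6a1 chr5:115348982-115349129, Ndufb6 chr4:40279422-40279671, Uqcrfs1 chr13:30545363-30545566 and Atp5g3 chr2:73911327-73911576. Capitals mark GCGCANGCG in Cox6a1, at 2 places, the first read on both strands, and CCGGAAG, read on the opposite strand as CTTCCGG, in Ndufb6. Atp5g3 holds a GCGCANGCG match in the 50 bases after its start, which are not shown.
Cox6a1: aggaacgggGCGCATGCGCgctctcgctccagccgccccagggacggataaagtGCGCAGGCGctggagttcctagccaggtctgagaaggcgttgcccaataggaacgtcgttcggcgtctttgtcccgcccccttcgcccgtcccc
Ndufb6: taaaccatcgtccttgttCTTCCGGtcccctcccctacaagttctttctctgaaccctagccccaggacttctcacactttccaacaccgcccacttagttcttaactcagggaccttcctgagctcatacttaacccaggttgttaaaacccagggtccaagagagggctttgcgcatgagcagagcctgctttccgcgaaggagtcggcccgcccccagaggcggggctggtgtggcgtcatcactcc
Uqcrfs1: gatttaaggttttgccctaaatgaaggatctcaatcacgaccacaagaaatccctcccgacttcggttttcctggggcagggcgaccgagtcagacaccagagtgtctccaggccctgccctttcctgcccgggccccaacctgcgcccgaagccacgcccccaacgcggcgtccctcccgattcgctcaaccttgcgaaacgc
Atp5g3: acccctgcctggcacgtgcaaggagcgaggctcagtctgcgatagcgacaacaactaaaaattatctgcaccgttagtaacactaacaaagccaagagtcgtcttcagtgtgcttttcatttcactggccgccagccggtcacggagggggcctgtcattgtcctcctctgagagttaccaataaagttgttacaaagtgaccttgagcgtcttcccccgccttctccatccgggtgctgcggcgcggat

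Nuclear subunits were spread over a wide range of levels per length. Length was the union of all annotated exons of a gene, 572 bases for Ndufa2 but 5628 for Ndufb2 and 6443 for Atp5l. Ranks and shares per kb therefore depend on the annotation as well as on the counts. In complex I, the highest was Ndufa2, an accessory subunit, with 133.3 CPM per kb and the lowest Ndufb2 with 1.87. In complex II the highest was the membrane anchor Sdhd (178.9) and the lowest the anchor Sdhc (39.9 CPM per kb). In complex III, which moves electrons to cytochrome c, Uqcr10 (168.5) was highest and Uqcrq (57.5 CPM per kb) lowest. In complex IV, Cox8a had 351.9 CPM per kb, while its testis-restricted relative Cox8c had a median of 0.0 CPM per kb. In complex V, the catalytic alpha subunit Atp5a1 had 357.2 and Atp5l 4.88 CPM per kb. The median share of nuclear subunit counts over the 16 libraries was 25.1% for complex I, 8.486% for complex II, 10.5% for complex III, 16.1% for complex IV and 39.6% for complex V. Per kilobase, complex IV had a median share of 26.8% and complex V of 24.7%.

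The balance between the genomes differed most within Day0_WT. Mitochondrial mRNAs were 26.6%, 22% and 21.8% of subunit counts in Day0_Gata2 and 55.6% and 25.5% in Day0_WT. They were 39.1% and 38.6% in Day2_Gata2 against 34.9%, 29.8% and 27.1% in Day2_WT, and 17.2%, 22.4% and 30.8% in Week2_Gata2 against 20.4%, 27.3% and 19.6% in Week2_WT. Day0_WT replicate 1 held the highest share of all, and its partner lay inside the range of Day0_Gata2.

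The summed level of the 13 mitochondrial mRNAs was 4240, 3159 and 3067 CPM in Day0_Gata2 and 10050 and 3790 CPM in Day0_WT. It was 9231 and 9412 CPM in Day2_Gata2, against 7016, 6949 and 6348 CPM in Day2_WT. The summed level of the 83 nuclear subunits was 11680, 11220 and 11020 CPM in Day0_Gata2 and 8012 and 11070 CPM in Day0_WT, and it was 14390 and 14950 CPM in Day2_Gata2 and 13100, 16360 and 17060 CPM in Day2_WT. Every Day2 library thus exceeded every Day0 library in the nuclear sum. In the mitochondrial sum the Day2 libraries exceeded 4 of the 5 Day0 libraries and lay below Day0_WT replicate 1. That library also had the highest sum of the mitochondrial ribosomal RNAs, 8988 CPM, against 2227 CPM in its partner and 1369 to 2111 CPM in Day0_Gata2.

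**Figure D2:**
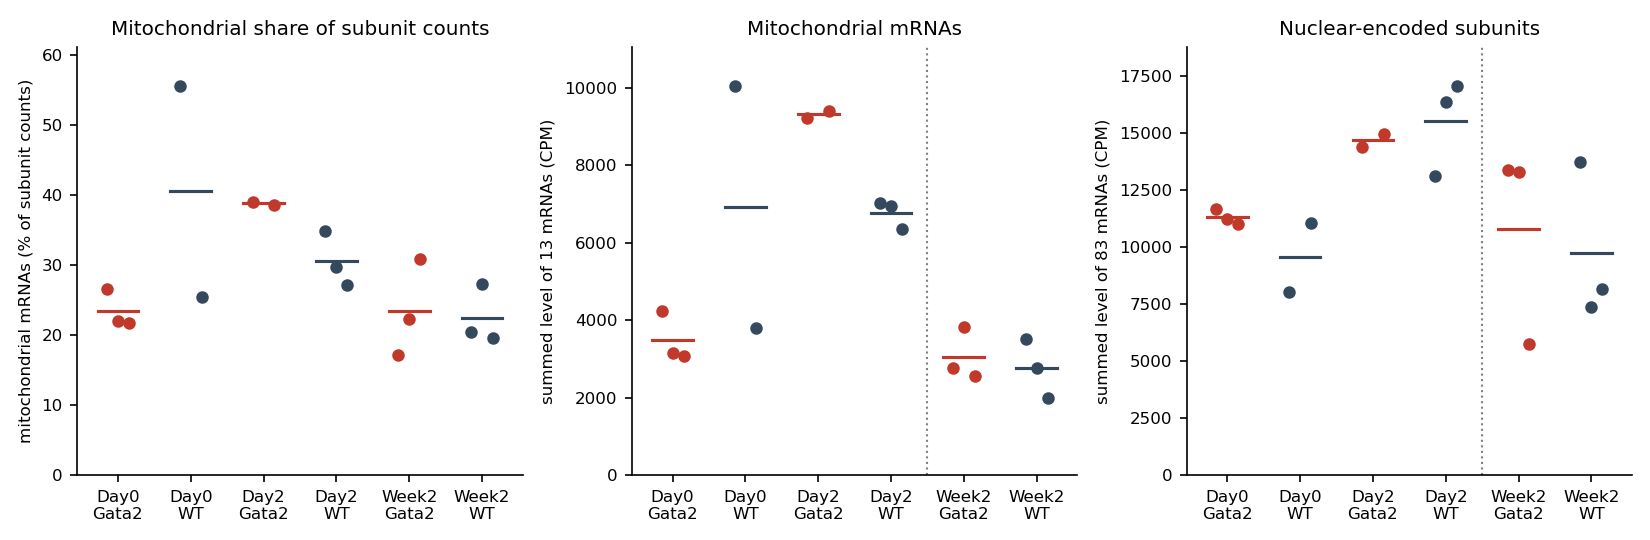
Points are libraries and bars are group means: left, the mitochondrial share of subunit counts in percent; middle and right, the summed CPM of the 13 mitochondrial and 83 nuclear mRNAs. Day0_WT spans 25.5% to 55.6% in the left panel; the dotted line marks that Week2 libraries were scaled apart from the LSK libraries.

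The first question over time was which subunits differed between Day2 and Day0 LSK cells. In the libraries labelled Gata2, 15 of 105 tested members were called higher at Day2 and 0 lower (edgeR quasi-likelihood test, adjusted p under 0.05), against a background of 4.48% of all tested genes called higher, 4.82% called lower and 9.3% called in either direction. They were 6 mitochondrial mRNAs and 9 nuclear subunits. In the libraries labelled WT, 27 were called higher and 3 lower, against 11.9% and 17.9% of all genes, or 29.9% in either direction. All 27 were nuclear subunits and all 3 were mitochondrial. The median log2 fold change of 80 tested nuclear subunits was 0.27 in Gata2 and 0.58 in WT libraries, with all-gene medians of -0.07 and -0.11, and 71 and 78 of the 80 had a fold change above 0, against 46.2% and 46.5% of all genes. All Day2 libraries lay above all Day0 libraries for 49 of the 80 in Gata2 libraries, against 25.9% of all genes, and for 38 of the 80 in WT libraries, against 24.8%. On leaving out Day0_WT replicate 1, the nuclear median in WT libraries was 0.39 and 13 of the 30 calls were kept. The 2 comparisons use separate libraries but 1 fit and 1 estimate of the spread.

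**Figure D3:**
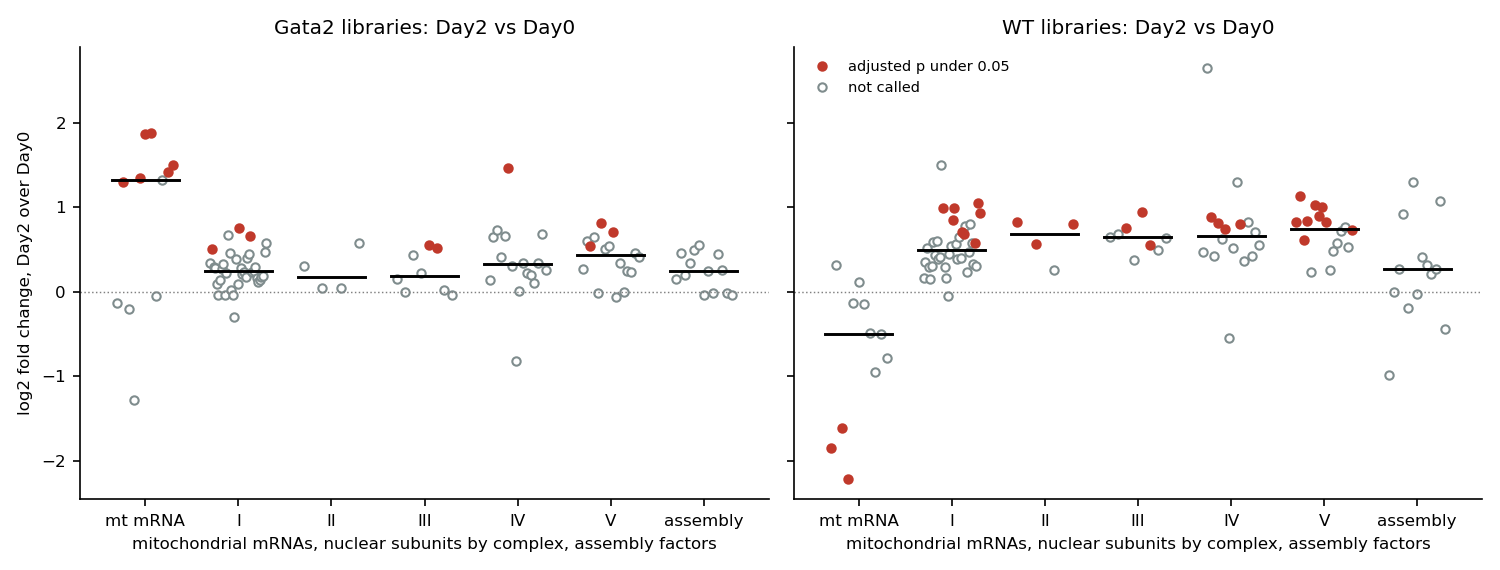
Each point is a tested member: the vertical axis is its log2 fold change, Day2 over Day0, in Gata2 libraries (left) and WT libraries (right), and filled points passed an adjusted p of 0.05. Bars are medians, 1.33 for mitochondrial mRNAs in Gata2 libraries and -0.50 in WT libraries.

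Complex I, the NADH entry point, had 3 of 36 nuclear subunits called higher in Gata2 and 8 in WT libraries, with medians of 0.24 and 0.50. Of all genes, 4.48% were called higher in Gata2 and 11.9% in WT libraries. Ndufs1, the large iron-sulphur core subunit, had 157.7 and 145.5 CPM in Day2_Gata2 against 98.5, 97.6 and 90.3 CPM in Day0_Gata2, and 148.7, 148.5 and 147.0 CPM in Day2_WT against 97.5 and 86.5 CPM in Day0_WT. Its 5 Day2 libraries all lay above its 5 Day0 libraries, with a log2 fold change of 0.67 ± 0.118 (SE) in Gata2 libraries (adjusted p = 0.00801) and of 0.69 in WT libraries (adjusted p = 0.00413). Ndufb5, an accessory subunit of the membrane arm, had 66.8 and 77.8 CPM in Day2_Gata2 against 46.8, 40.4 and 41.4 CPM in Day0_Gata2. In WT libraries it had 62.1, 74.8 and 75.9 CPM at Day2 against 36.3 and 42.2 CPM at Day0, again without overlap (log2 fold changes 0.75 and 0.85, adjusted p = 0.0207 and 0.007). Ndufa10, another accessory subunit, was called in Gata2 libraries (0.50, adjusted p = 0.0306). The core subunits Ndufv2 (1.06, adjusted p = 0.0206) and Ndufs8 (0.58), the acyl carrier protein Ndufab1 (0.99, adjusted p = 0.0182), and the accessory subunits Ndufv3 (0.94), Ndufb6 (1.0) and Ndufc2 (0.71) were called in WT libraries. When Day0_WT replicate 1 was left out, the calls of Ndufs1, Ndufb5 and Ndufv3 were kept, and those of Ndufv2 (0.61), Ndufs8 (0.38), Ndufab1 (0.60), Ndufb6 (0.64) and Ndufc2 (0.73) were lost.

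Complex II, succinate dehydrogenase, had 3 of 4 subunits called higher in WT libraries (median 0.68), against 11.9% of all genes. In Gata2 libraries (median 0.18) DESeq2 called 1 and limma voom 2 of the 4 higher, whereas edgeR called 0 and gave 1 of them an unadjusted p under 0.05. Its flavoprotein subunit Sdha had 569.5 and 536.1 CPM in Day2_Gata2 against 445.1, 456.1 and 438.7 CPM in Day0_Gata2, and 556.8, 563.6 and 546.5 CPM in Day2_WT against 260.7 and 362.8 CPM in Day0_WT. Day2 levels of the 2 labels were alike within their spread, and the Day0_WT pair lay below all 3 Day0_Gata2 libraries. Sdha was called in WT libraries (0.83 ± 0.145 SE, adjusted p = 0.00385), as were the anchor Sdhd (0.80, adjusted p = 0.00849) and the iron-sulphur subunit Sdhb (0.57). Sdhc was not (0.26, adjusted p = 0.209). With Day0_WT replicate 1 left out, Sdha (0.58) and Sdhd (0.57) were still called and Sdhb (0.34, adjusted p = 0.217) was not.

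Complex III had 2 of 8 nuclear subunits called higher in Gata2 libraries (median 0.19) and 3 of 8 in WT libraries (median 0.65). The shares of all genes called higher were 4.48% and 11.9%. The core protein Uqcrc2 had 204.4 and 198.3 CPM in Day2_Gata2 against 145.8, 134.2 and 130.5 CPM in Day0_Gata2, and 199.6, 221.7 and 218.8 CPM in Day2_WT against 96.6 and 125.7 CPM in Day0_WT. It was higher at Day2 without overlap for both labels (0.56, adjusted p = 0.0339, and 0.94, adjusted p = 0.00208). Uqcrfs1, the Rieske iron-sulphur protein, was called for both labels too, by 0.52 (adjusted p = 0.0477) in Gata2 and 0.55 (adjusted p = 0.019) in WT libraries, and the small subunit Uqcrb (0.76) in WT libraries. Without Day0_WT replicate 1 the WT call of Uqcrc2 (0.73) was kept, and those of Uqcrfs1 (0.47, adjusted p = 0.0707) and Uqcrb (0.58, adjusted p = 0.0709) were lost.

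Complex IV, the oxygen-consuming oxidase, had 1 of 16 tested nuclear subunits called higher in Gata2 libraries (median 0.33) and 4 in WT libraries (median 0.67). Among all genes 4.48% and 11.9% were called higher, so the 1 of 16 in Gata2 libraries is near the background. The member called in Gata2 libraries was Cox6a2, the heart and muscle isoform, at 7.86 and 13.5 CPM in Day2_Gata2 against 4.17, 3.84 and 3.55 CPM in Day0_Gata2 (1.47, adjusted p = 0.0467). In WT libraries it had 6.56, 7.13 and 7.72 CPM at Day2 against 6.28 and 3.02 CPM at Day0 and was not called (0.63, adjusted p = 0.270). Called in WT libraries were Cox5a (0.88, adjusted p = 0.0171), a matrix-side subunit, and Cox6a1 (0.82), Cox7a2 (0.80) and Cox6b1 (0.75, adjusted p = 0.0494). All 4 calls were lost without Day0_WT replicate 1, with folds of 0.58, 0.49, 0.50 and 0.39 in the same order. Cox4i1, the regulatory subunit IV isoform of most tissues, was not called in either (0.14 and 0.47).

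Complex V, the ATP synthase, had 3 of 16 nuclear subunits called higher in Gata2 and 9 of 16 in WT libraries, with medians of 0.44 and 0.75. For all genes the shares called higher were 4.48% and 11.9%. Atp5f1, the peripheral stalk subunit b, had 420.7 and 377.5 CPM in Day2_Gata2 against 255, 211.1 and 213.8 CPM in Day0_Gata2, and 364.2, 438.9 and 425.6 CPM in Day2_WT against 192.9 and 207.1 CPM in Day0_WT. It had the lowest p of all members for both labels (0.82 ± 0.136 SE, adjusted p = 0.00616, and 1.03 ± 0.142 SE, adjusted p = 0.00129). Atp5b, the catalytic beta subunit, had 2055 and 2259 CPM in Day2_Gata2 against 1422, 1425 and 1399 CPM in Day0_Gata2, and 2008, 2236 and 2293 CPM in Day2_WT against 764.5 and 1226 CPM in Day0_WT. Every Day2 library was above every Day0 library, and the call was made in WT libraries (1.13 ± 0.187 SE, adjusted p = 0.00315). Of the genes for the ring-forming c subunit, Atp5g3 was called for both labels (0.70 and 0.83), and Atp5g1 (0.90) and Atp5g2 (1.0) in WT libraries. The central stalk subunit Atp5c1 was called for both labels (0.54 and 0.61), and Atp5a1 (0.83), the oligomycin-sensitivity subunit Atp5o (0.74) and Atp5d (0.84) in WT libraries. When Day0_WT replicate 1 was left out, 6 of these 9 calls were kept, among them Atp5f1 (0.95), Atp5b (0.80) and Atp5a1 (0.47), and those of Atp5d (0.48), Atp5g1 (0.42) and Atp5g2 (0.53) were lost. Complex V made up 43.0% and 44.2% of nuclear subunit counts in Day2_Gata2 against 40.4% to 40.7% in Day0_Gata2, and 41.3% to 44.1% in Day2_WT against 36.3% and 38.6% in Day0_WT, a higher share in each Day2 library than in any Day0 library.

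In all, 7 members were called higher at Day2 for both labels: Atp5c1, Atp5f1, Atp5g3, Ndufb5, Ndufs1, Uqcrc2 and Uqcrfs1, which is 46.7% of the 15 called in Gata2 and 25.9% of the 27 called in WT libraries. Of the 13 assembly factors, edgeR called 0 for either label, and 0 in Gata2 and 3 in WT libraries had an unadjusted p under 0.05, against 25.4% and 43.1% of all genes. DESeq2 called 0 in Gata2 libraries and 1 higher and 1 lower in WT libraries, and limma voom called 0 in both. Their medians were 0.24 and 0.27.

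The mitochondrial mRNAs had a median log2 fold change at Day2 of 1.33 in Gata2 libraries and -0.50 in WT libraries, over the 11 tested. In Gata2 libraries, mt-Nd2 had 361.5 and 470.6 CPM at Day2 against 131.5, 108.4 and 98.7 CPM at Day0 (1.88 ± 0.391 SE, adjusted p = 0.0177). The complex I core subunit mt-Nd1 had 1226 and 1492 CPM at Day2 against 469, 350.3 and 291 CPM (1.88 ± 0.397 SE, adjusted p = 0.0189). Cytochrome b, mt-Cytb, had 2436 and 2816 CPM against 1233, 945.4 and 918.3 CPM (1.35, adjusted p = 0.0219). For these 3 mRNAs the Day2_Gata2 libraries were separate from Day0_Gata2 by more than the spread within either group. The complex IV catalytic subunit mt-Co1 (1.30, adjusted p = 0.0289), mt-Nd5 (1.43) and mt-Nd6 (1.504) were also called, and mt-Nd4 (1.33, adjusted p = 0.0707) was not.

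In WT libraries the same mRNAs depended on Day0_WT replicate 1. For mt-Nd1 the Day2_WT values were 1020, 922.1 and 881 CPM, and the Day0_WT values 1330 and 402.1 CPM, above and below all 3. For mt-Nd2 they were 316.6, 291.5 and 262.1 CPM at Day2 and 493.6 and 145.6 CPM at Day0, and for mt-Cytb 1837, 1810 and 1628 CPM at Day2 and 2710 and 1144 CPM at Day0. With Day0_WT replicate 1 left out, the median of the mitochondrial mRNAs turned to 0.47 in WT libraries, and the log2 fold change of mt-Nd2 was 0.96 (adjusted p = 0.01325), against -0.14 with it. Called lower at Day2 in WT libraries were mt-Co3 (-2.21 ± 0.334 SE, adjusted p = 0.00213), mt-Atp6 (-1.85, adjusted p = 0.0259) and mt-Co2 (-1.62, adjusted p = 0.044), all 3 among the mRNAs with a near-complete copy. On leaving out Day0_WT replicate 1, the call of mt-Co3 was kept (-1.61, adjusted p = 0.00197), and those of mt-Atp6 (-0.54, adjusted p = 0.252) and mt-Co2 (-0.40, adjusted p = 0.446) were lost. mt-Co3 had 6.05, 5.63 and 7.46 CPM in Day2_WT against 40.2 and 19.1 CPM in Day0_WT, and 7.62 and 6.19 CPM in Day2_Gata2 against 18.7, 17.4 and 14.3 CPM in Day0_Gata2 (-1.28, adjusted p = 0.0508). It was lower in each Day2 library than in each Day0 library, unlike the mRNAs without shared sequence.

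Counts of calls over time moved with single libraries. In Gata2 libraries the 15 became 0 without Day2_Gata2 replicate 1, 2 without Day2_Gata2 replicate 2, Day0_Gata2 replicate 2 or Day0_Gata2 replicate 3, 7 without Day2_WT replicate 2, 8 without Day0_Gata2 replicate 1 or Day2_WT replicate 3, and 31 without Day0_WT replicate 1. In WT libraries the 30 became 12 without Day2_WT replicate 2 or 3, 16 without Day2_Gata2 replicate 1, 19 without Day0_WT replicate 1, Day0_Gata2 replicate 1 or Day0_Gata2 replicate 2, and 73 without Day0_WT replicate 2. Without that last library the 30 calls were kept, and the folds of Atp5d (1.27), Atp5g1 (1.56), Atp5g2 (1.65), Ndufv2 (1.65), Atp5a1 (1.26), Cox6b1 (1.18) and Ndufab1 (1.49) were more than 1.5 times as large. The calls of Atp5f1, Uqcrc2, Atp5b and mt-Co3 in WT libraries were kept in each of the 10 leave-outs and in 10 other settings. Markers of other lineages moved with time as well. The summed level of 5 megakaryocyte markers was 1552 to 1638 CPM in Day2_Gata2 against 388.6 to 487.2 CPM in Day0_Gata2, and 1818 to 2152 CPM in Day2_WT against 346.8 to 511.9 CPM in Day0_WT. That of 6 B cell markers was 20.5 to 29.3 CPM in Day2_Gata2 against 63.0 to 96.9 CPM in Day0_Gata2, and 18.8 to 31.1 CPM in Day2_WT against 59.1 to 147.3 CPM in Day0_WT. That of 9 erythroid markers was 22.7 to 32.2 CPM in Day2_Gata2 against 51.4 to 78.6 CPM in Day0_Gata2, and 36.1 to 43.3 CPM in Day2_WT against 60.3 to 86.5 CPM in Day0_WT. The sums of B cell, erythroid, T and NK cell and LSK markers were thus lower, and that of megakaryocyte markers higher, in each Day2 library than in each Day0 library of its label. Neutrophil markers were higher at Day2 without overlap in WT libraries and overlapped in Gata2 libraries. The part of these marker shifts in the subunit levels was not tested.

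Genes that feed or surround the chain were read from fixed lists. The shares of all genes called at Day2 were 4.48% higher and 4.82% lower in Gata2 libraries, and 11.9% higher and 17.9% lower in WT libraries. Of 22 genes of the citric acid cycle and pyruvate entry, 6 were called higher at Day2 in Gata2 and 14 in WT libraries, and 0 lower (medians 0.43 and 0.67), and 12 of the 14 calls were kept without Day0_WT replicate 1. Citrate synthase, Cs, averaged 377.5 CPM in Day2_Gata2 against 216.4 CPM in Day0_Gata2 (0.80, adjusted p = 0.00311) and 353.1 CPM in Day2_WT against 177.3 CPM in Day0_WT (0.99, adjusted p = 0.000722). The pyruvate dehydrogenase kinase Pdk3, which restrains pyruvate entry, was called for both labels (1.15 and 1.08), and its relative Pdk1 in WT libraries (1.82, adjusted p = 0.00066). Of 16 genes of electron carriers and of nucleotide and phosphate transport, 5 were called higher and 1 lower in Gata2, and 7 higher and 1 lower in WT libraries. The ADP/ATP carrier Slc25a5 averaged 1136 CPM in Day2_Gata2 against 694.6 CPM in Day0_Gata2, and 1156 CPM in Day2_WT against 562.4 CPM in Day0_WT (0.71, adjusted p = 0.00576, and 1.04, adjusted p = 0.000629). The outer membrane channel Vdac1 was called higher for both labels (0.74 and 0.86), and Coq8a, a kinase-like protein of ubiquinone synthesis, lower for both (-0.92 and -1.08). Without Day0_WT replicate 1, 5 of the 7 higher calls and the lower call in WT libraries were kept.

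Of 26 genes of mitochondrial transcription, RNA handling and DNA maintenance, 1 was called higher and 0 lower in Gata2, and 10 higher and 4 lower in WT libraries. Among all genes 4.48% were called higher and 4.82% lower in Gata2 libraries, and 11.9% and 17.9% in WT libraries, so the 1 of 26 higher in Gata2 and the 4 of 26 lower in WT libraries are near the background. With Day0_WT replicate 1 left out, 5 of the 10 higher and 2 of the 4 lower calls in WT libraries were kept. The gene called for both labels was Lrpprc, which stabilises mitochondrial mRNAs, with a mean of 154.7 CPM in Day2_Gata2 against 102.6 CPM in Day0_Gata2 (0.59, adjusted p = 0.0419) and 165.4 CPM in Day2_WT against 88.7 CPM in Day0_WT (0.90, adjusted p = 0.00421). Tfam, the mitochondrial DNA packaging and transcription factor, was called in WT libraries (0.77, adjusted p = 0.0329) and not in Gata2 libraries (0.27, adjusted p = 0.516), and the WT call was lost without Day0_WT replicate 1 (0.39, adjusted p = 0.119). The DNA polymerase subunits Polg (-0.87) and Polg2 (-1.60) were among the 4 called lower in WT libraries. Whether these single calls were kept without Day0_WT replicate 1 is not given. Of 10 regulators of mitochondrial biogenesis, Pprc1, a relative of the PGC-1 coactivators, was called higher in WT libraries (0.62, adjusted p = 0.0475, against 0.29 and 0.264 without Day0_WT replicate 1) and in Gata2 libraries DESeq2 called 1 lower and limma voom 0, whereas edgeR called 0 and gave 1 an unadjusted p under 0.05. Of 26 tested complex assembly genes outside the prefixes, 1 was called higher in Gata2 and 3 higher and 2 lower in WT libraries, near or below the shares of all genes, and the 2 lower calls were lost without Day0_WT replicate 1.

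Whether the Day2 to Day0 change differed between the labels was tested as a difference of differences. With edgeR, 0 members were called, and 0.0% of all genes; 9 members had an unadjusted p under 0.05, against 10.3% of all genes. DESeq2 called 4 members, all mitochondrial and higher, against 1.15% of all genes. The median was 1.71 for mitochondrial mRNAs, -0.28 for nuclear subunits and -0.06 for all genes. The lowest p belonged to mt-Nd6 (2.29 ± 0.552 SE, adjusted p = 0.465), followed by mt-Nd4 (2.28), mt-Nd5 (1.92) and mt-Nd2 (2.02). On leaving out Day0_WT replicate 1, the mitochondrial median was 0.66 with 0 calls, and without Day0_WT replicate 2 it was 2.08 with 46 calls, 12 higher and 34 lower, against 31.1% of all genes.

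The comparison of labels at a single time asked how Gata2 libraries differ from WT libraries. At Day0, edgeR called 0 members and 0.0% of all genes. An unadjusted p under 0.05 was reached by 15 members, against 13.5% of all genes. DESeq2 called 3 members lower, all mitochondrial, against 1.99% of all genes. The mitochondrial mRNAs had a median of -1.18, below 0 for 11 of 11 against 48.6% of all genes, the nuclear subunits of 0.13 and all genes of 0.02. Cut from long transcripts, the 11 need not vary separately and are not 11 separate events. For mt-Nd6, of lowest p, the levels were 51.0, 45.4 and 42.9 CPM in Day0_Gata2 against 210.6 and 60.9 CPM in Day0_WT (-1.55 ± 0.391 SE, adjusted p = 0.341). The groups did not overlap. In all, 15 members were higher and 10 lower without overlap, against 18.3% and 14.2% of all genes. Sdha (0.52) and Atp5b (0.51) were among the 10 members of lowest p on the higher side, and Atp5s (-1.20) on the lower. When Day0_WT replicate 1 was left out, the mitochondrial median was -0.15 and the nuclear -0.06, with 0 calls, and without Day0_WT replicate 2 there were 53 calls, 39 higher and 14 lower, against 39.9% of all genes.

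At Day2, edgeR called 0 members and 0.0% of all genes, and 0 members reached an unadjusted p under 0.05, against 5.58% of all genes. DESeq2 and limma voom also called 0 members. The median was 0.52 for the mitochondrial mRNAs, of which 10 of 11 were above 0 (47.6% of all genes), and -0.15 for the nuclear subunits, of which 61 of 80 were below 0 (50.1% of all genes), with an all-gene median of -0.00. For mt-Nd4 the levels were 421.5 and 594.6 CPM in Day2_Gata2 against 301.8, 283.5 and 249.1 CPM in Day2_WT (0.87 ± 0.403 SE, adjusted p = 0.906). For mt-Nd5 they were 877.1 and 1066 CPM against 675.8, 578 and 486.4 CPM (0.74, adjusted p = 0.922). In both, the Gata2 libraries lay above all WT libraries, as for 8 of the 11 mitochondrial mRNAs, against 9.96% of all genes. Among the 8 were mt-Co2 and mt-Atp6, which have near-complete copies. Mitochondrial mRNAs are cut from long transcripts and need not vary separately, so the 8 are not 8 separate events. Among nuclear subunits the lowest p was that of Uqcrq (-0.58, adjusted p = 0.921), and the levels overlapped.

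At Week2, edgeR called 0 members and 0.0% of all genes, and 0 members reached an unadjusted p under 0.05, against 0.238% of all genes. DESeq2 called 0 members, whereas limma voom with quality weights called 74 higher and 1 lower, against 32.9% of all genes. Levels varied widely within groups: the nuclear sum was 13380, 13270 and 5735 CPM in Week2_Gata2 and 13720, 7352 and 8138 CPM in Week2_WT, and Atp5b had 1680, 1573 and 645.1 CPM against 1513, 815.5 and 955.6 CPM. The summed levels of 9 neutrophil markers ranged from 18340 to 94460 CPM in Week2_Gata2 and from 18890 to 79590 CPM in Week2_WT. Whether the libraries of a group differed in cell mixture or in RNA per cell cannot be told apart. The part of these marker differences in the subunit levels was not tested. The medians were 0.15 for mitochondrial mRNAs, 0.10 for nuclear subunits (-0.04 under upper quartile scaling) and 0.00 for all genes. The lowest p belonged to Cox6b2 (-0.51 ± 0.466 SE, adjusted p = 1.0).

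**Figure D4:**
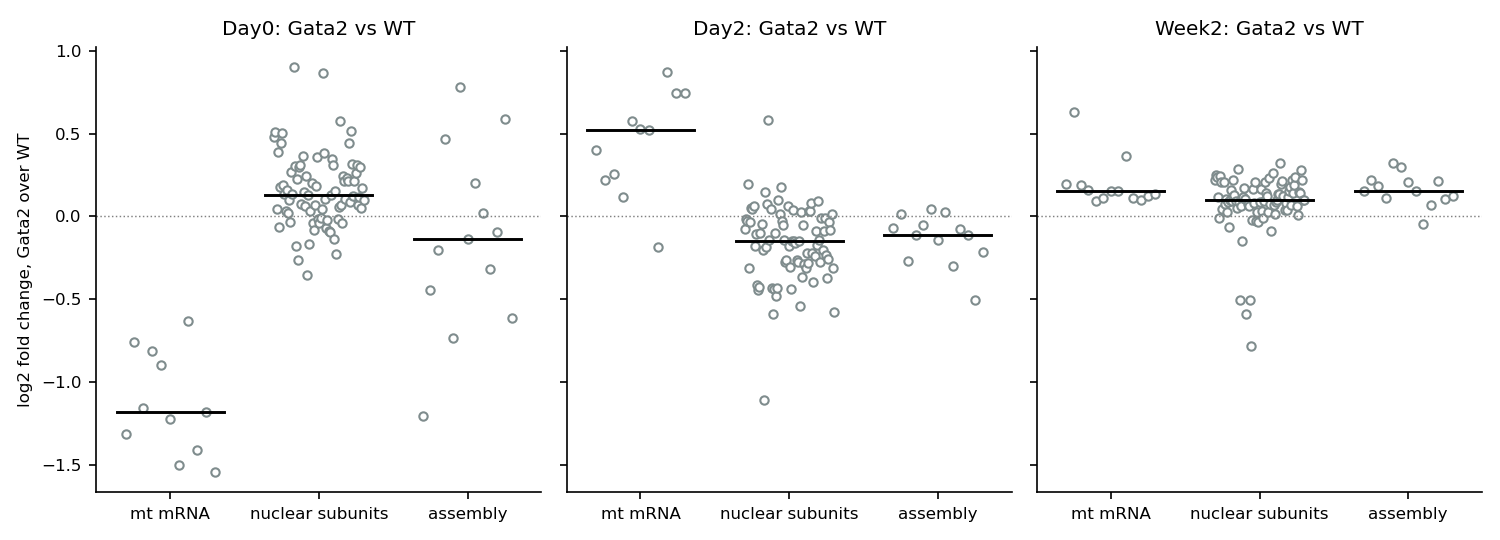
Each point is a tested member: the vertical axis is its log2 fold change, Gata2 over WT libraries, at Day0, Day2 and Week2, and bars are medians; 0 points passed an adjusted p of 0.05. The mitochondrial medians are -1.18, 0.52 and 0.15.

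Week2 and Day0 libraries differ in the sorted population and depth, and possibly in library kit, as well as in time, and these cannot be told apart. On the scale of all 16 libraries, the median log2 fold change over all genes was 1.22 in Gata2 and 0.95 in WT libraries. Over the members it was -0.09 and 0.05. This fit tested 31164 genes, against 19162 in the fit of LSK libraries alone. The all-gene medians and shares thus include genes that passed the filter through the deeper Week2 libraries. They do not show that members were low at Week2. In Gata2 libraries 6 members were called higher and 12 lower, against 32.6% and 10.4% of all genes. In WT libraries 6 were called higher and 16 lower, against 21.9% and 11.6% of all genes. The nuclear median in WT libraries was 0.10, and -0.11 without Day0_WT replicate 1.

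Of the 13 assembly factors, 6 were called in either direction in Gata2 libraries, near the 43.0% of all genes, and 8 in WT libraries, against 33.5% of all genes. Without Day0_WT replicate 1, 5 of these 8 calls were kept. Sdhaf2, which attaches the flavin to Sdha, had 94.9, 129 and 89.2 CPM in Week2_Gata2 against 46.1, 41.6 and 39.95 CPM in Day0_Gata2, and 113.6, 76.2 and 95.4 CPM in Week2_WT against 44.7 and 44.7 CPM in Day0_WT. It was higher at Week2 without overlap for both labels (1.30, adjusted p = 0.000107, and 1.09, adjusted p = 0.00182). Ndufaf4, a complex I assembly factor, had 16.4, 19.4 and 11.1 CPM in Week2_Gata2 against 37.7, 34.4 and 35.5 CPM in Day0_Gata2, and 17.4, 9.61 and 12.8 CPM in Week2_WT against 81.4 and 35.3 CPM in Day0_WT. It was lower without overlap (-1.20, adjusted p = 0.00686, and -2.13, adjusted p = 0.00017, the WT fold being -1.41 with an adjusted p of 0.00497 without Day0_WT replicate 1). Ndufaf2 (-1.25 and -1.52), Ndufaf6 (-1.04 and -1.27) and Atp5s (-1.40 and -2.62) were also called lower for both labels, and Ndufaf3 (0.82 and 1.28) higher. On leaving out Day0_WT replicate 1, the WT fold of Atp5s was -1.71, still called, and that of Ndufaf3 was 0.80 (adjusted p = 0.0942), no longer called.

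Among subunits, the accessory complex I subunit Ndufa10 was called lower for both labels (-0.58 and -0.59), and Cox6a2 higher (1.60 and 1.15). The WT call of Ndufa10 was lost without Day0_WT replicate 1 (-0.66, adjusted p = 0.0573), and that of Cox6a2 was kept without it (1.73) and lost without Day0_WT replicate 2 (0.74, adjusted p = 0.156). In Gata2 libraries Atp5g2 (-1.19, adjusted p = 0.00351), Atp5g1 (-0.87), Ndufa4 (-1.06), Ndufs7 (-0.77), Atp5d (-0.61) and Sdhc (-0.58) were called lower and Ndufs1 (0.48) higher. The mitochondrial mRNAs had a median of -0.13 in Gata2 (0.04 under upper quartile scaling) and -1.14 in WT libraries (-0.43 without Day0_WT replicate 1). In WT libraries 8 were called lower, and 7 of these calls were lost without Day0_WT replicate 1. The call that remained was mt-Nd2, with 76.9, 76.3 and 53.5 CPM in Week2_WT against 474.5 and 145.2 CPM in Day0_WT (-2.17, adjusted p = 0.000336); without Day0_WT replicate 1 its fold was -1.08 (adjusted p = 0.0198). In Gata2 libraries mt-Nd2 had 51.4, 87.9 and 82.8 CPM at Week2 against 130.4, 107.3 and 99.2 CPM at Day0, lower without overlap but not called (-0.60, adjusted p = 0.127). The mRNA mt-Co2, which has a full copy, was called higher in Gata2 libraries (1.28, adjusted p = 0.0328). The 18 calls in Gata2 libraries became 8 without Day0_Gata2 replicate 1, 9 without Day0_Gata2 replicate 2 or 3, and 12 without Week2_Gata2 replicate 3, and the 22 calls in WT libraries became 9 without Day0_WT replicate 1 and 14 without Week2_WT replicate 3.

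Tissue isoforms were also set against their partners. Cox6b2, the testis isoform of an intermembrane-facing complex IV subunit, had 5.95, 5.13 and 3.07 CPM in Week2_Gata2 against 31.3, 31.8 and 31.8 CPM in Day0_Gata2 (-2.75 ± 0.383 SE, adjusted p = 6.66e-05), and 6.79, 6.24 and 9.06 CPM in Week2_WT against 11.3 and 39.2 CPM in Day0_WT (-1.78, adjusted p = 0.00425). The WT fold was -2.42 without Day0_WT replicate 1 and -0.61, not called (adjusted p = 0.168), without Day0_WT replicate 2. Its share of Cox6b1 and Cox6b2 counts was 15.7% to 15.97% in Day0_Gata2 and 10.2% and 18.6% in Day0_WT, 7.86% and 7.96% in Day2_Gata2 and 6.36% to 8.14% in Day2_WT, and 2.56% to 2.93% in Week2_Gata2 and 3.10% to 5.71% in Week2_WT. The share was lower at each later time, without overlap between times, and was not tested. The share of Atp5g2 among the c subunit genes was 13%, 13.9% and 14.0% in Day0_Gata2, 12.3% and 13.5% in Day2_Gata2, and 8.79%, 8.96% and 9.52% in Week2_Gata2. In WT libraries it was 9.92% and 13.3% at Day0, 13% to 13.2% at Day2 and 9.63% to 10.2% at Week2.

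**Figure D5:**
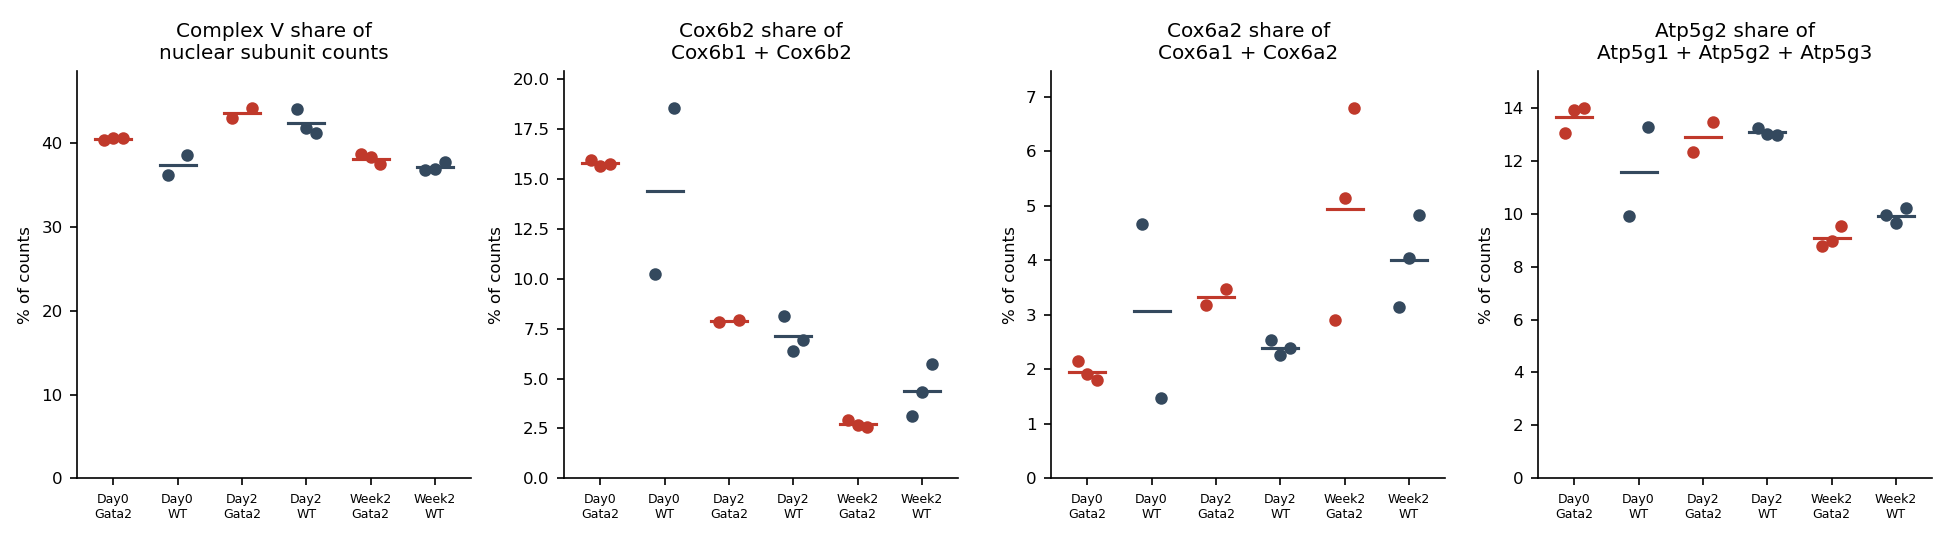
Points are libraries and bars are group means of 4 shares in percent of counts: complex V among nuclear subunits, Cox6b2 among Cox6b genes, Cox6a2 among Cox6a genes and Atp5g2 among Atp5g genes. The Cox6b2 share is 10.2% or more at Day0, 6.36% to 8.14% at Day2 and 5.71% or less at Week2.

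Other isoforms had low counts, and some were near the limit of counting. Cox4i2, a hypoxia-responsive lung isoform, had 199 and 87 counts in Day2_Gata2 against 97, 71 and 145 in Day0_Gata2, and 256, 285 and 381 in Day2_WT against 0 and 94 in Day0_WT. It was not called at Day2 in either comparison (0.65 and 2.66, adjusted p = 0.762 and 0.105), and the 0 belonged to Day0_WT replicate 1. The muscle isoform Cox7a1 had 0 to 42 counts in LSK libraries. The testis-associated Cox7b2 and Cox8c, and Cox8b, had 0 counts in all 5 Day2 libraries and at most 3 in any Day0 library. At Week2, Cox7b2 had 10, 56 and 197 counts in Week2_Gata2 and 43, 215 and 176 in Week2_WT, and Cox8c 12, 46 and 81 and 16, 85 and 174 counts. Ndufa4l2 had 0 to 23 counts in LSK libraries. These counts come from larger Week2 libraries, and no fold is given against groups at 0.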

How the data were processed

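The authors deposited raw read counts, whole numbers for each Ensembl gene ID, in 16 libraries. The submitters' processing notes name Trimmomatic 0.38, STAR 2.5.2b and mm10. The sources used here do not name the counting program, its strand setting or its treatment of reads matching several places: overlapping or near-identical genes may share counts. The labels' protocols name 2 library kits, 1 stranded and 1 for low input, without saying which library had which, and name no batch.

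Of 45706 IDs, 45143 had a symbol in GENCODE M21, which also gave exon lengths and transcripts (GRCm38, equal to mm10). Promoters came from RefSeq (GRCm38.p6). The files had 0 lines naming no gene.

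Counts were tested by edgeR 4.0.16 (R 4.3.3; TMM scaling, filterByExpr, robust quasi-likelihood test, Benjamini-Hochberg adjustment over all tested genes, calls at an adjusted p under 0.05). Fits were of the 10 LSK libraries (19162 genes, 105 members), the 6 Week2 libraries alone (36485 genes, 110 members), and all 16 together for Week2 against Day0 (31164 genes, 107 members). Of the 13 mitochondrial mRNAs, mt-Nd4l and mt-Atp8 did not pass the filter in the LSK and the 16-library fits, and Cox8b did not in either; Cox7b2 and Cox8c did not in the LSK fit. CPM (counts per 1e+06, TMM-scaled) use the scaling of the fit: LSK and Week2 levels are scaled apart, except beside Week2 against Day0 and per kb of exon, which use all 16. Fold changes are log2, first group over second.

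The members and lists were chosen with earlier results of these data known. The rule for naming took all called members up to 25 by lowest p (or, with fewer than 5 called, the 10 with the smallest p), the mitochondrial mRNAs, tissue isoforms, the highest and lowest member of each complex per kb and, for Week2 against Day0, the 10 largest rises and falls among called members without overlap and with 5 CPM or more. Not every member under this rule is described, and with fewer than 5 called only some of the 10 are. Not described above are Sdhaf4 (-1.20) and Ndufb7 (0.78), both called at Week2 against Day0 in WT libraries. Without Day0_WT replicate 1 the fold of Ndufb7 was 0.40. Others named were chosen after their values were seen. Alternatives were RLE and upper quartile scaling, mitochondrial genes left out of scaling, no low count filter, 5 CPM in 2 libraries, DESeq2 1.42.0, limma 3.58.1 voom with quality weights, the groups compared alone, a sex term (male where Ddx3y was above 10 CPM), the replicate number as a block, and each library left out. Where this left a group with 1 library, that library was assumed to vary like the others. Copies added to the mitochondrial share, and mRNAs with under 10% shared windows alone, were chosen after the data were seen, as was the length of the NRF1 motif. The procedure was tested on simulated counts. Each pair of replicates differed beyond counting noise (chi-square divided by its degrees of freedom was 28.4 or more).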

Additional observations from a re-analysis of the deposited data

How the results depend on the processing

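Counts of called members depended on the model and on single libraries; scaling and sex left each within 1.5 times. For Day2 against Day0 in Gata2 libraries (15), the groups compared alone gave 37, limma voom 29 and no low count filter 4; in WT libraries (30), the groups alone gave 5 and limma voom 6. For Week2 against Day0, limma voom gave 49 in Gata2 libraries (18), and in WT libraries (22) the groups alone gave 13 and limma voom 12. DESeq2 called 3 in the Day0 label comparison (0) and 4 in the difference of the Day2 responses (0), and limma voom 75 in the Week2 label comparison (0).

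The replicate numbers did not pair the libraries: correlations of same-numbered deviations were 0.60, -0.75 and 0.35 at Week2 and between -0.13 and 0.095 elsewhere. With the replicate number as a block, 3 members were called in Gata2 and 18 in WT libraries at Day2 against Day0.

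With each library left out in turn, the counts ranged from 0 to 31 (Gata2) and 12 to 73 (WT) for Day2 against Day0, 0 to 53 for the labels at Day0, 0 to 0 at Day2 and at Week2, 0 to 46 for the difference of responses, and 8 to 21 (Gata2) and 9 to 28 (WT) for Week2 against Day0. Direction reversed in WT libraries for mt-Nd2 at Day2 without Day0_WT replicate 1 (0.96, against -0.14 with it). It also reversed without Day0_WT replicate 2 for Cox6b2 at Day2 (range -1.20 to 0.58 over the left-out libraries, -0.55 with all) and Cox4i2 at Week2 (-1.23 to 9.71, -0.27 with all), where the remaining Day0_WT library had 0 counts of Cox4i2. The cause was not tested. Of 4299 values of named members, these 3 included, 3653 kept direction and side of the threshold, 431 lost the call, 106 gained it and 106 uncalled values changed sign. Only 81 of the 207 named results were called, so the 3653 include uncalled results that stayed uncalled and do not measure how stable the calls were.

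The mean mitochondrial share of subunit counts was 23.5% in Day0_Gata2, 40.6% in Day0_WT, 38.9% in Day2_Gata2, 30.6% in Day2_WT, 23.5% in Week2_Gata2 and 22.5% in Week2_WT. Per kb it was 29.8% in Day0_Gata2, 47.3% in Day0_WT, 47.7% in Day2_Gata2, 38.1% in Day2_WT, 29.4% in Week2_Gata2 and 28% in Week2_WT. Without mt-Co1 it was 15.9% in Day0_Gata2, 32.1% in Day0_WT, 29.1% in Day2_Gata2, 20.5% in Day2_WT, 16.6% in Week2_Gata2 and 15.9% in Week2_WT, and with the low-sharing mRNAs alone 14.5%, 29.5%, 27.2%, 19.3%, 15.1% and 14.5% in the same groups. Per kb the complexes took 29.9% (I), 6.16% (II), 12.2% (III), 26.8% (IV) and 24.7% (V). As shares of counts and not per kb, complex I took 25.1% and complex IV 16.1%. With Ndufa4 counted in complex I, these shares of counts were 26.6% (I) and 14.8% (IV). Upper quartile scaling moved the all-gene median of Day2 against Day0 in WT libraries from -0.11 to -0.26. Counts of mt-Nd3, mt-Nd4l, mt-Atp8, Cox7a1, Cox8b and Ndufa4l2 were too low in LSK libraries to show small differences.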

Other observations

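At Week2 against Day0, ubiquinone and transport genes, none of them in the symbol rule, included 10 of 16 called lower and 1 higher in Gata2 libraries and 7 lower and 1 higher in WT libraries. Of all genes, 32.6% were called higher and 10.4% lower in Gata2 libraries and 21.9% and 11.6% in WT libraries. Without Day0_WT replicate 1, 4 of the 7 lower calls and the higher call were kept. The gene called higher for both labels was Coq7, a hydroxylase of ubiquinone synthesis, which averaged 80.3 CPM in Week2_Gata2 against 25.9 CPM in Day0_Gata2 (log2 fold change 1.64, edgeR adjusted p = 0.000118) and 75.5 CPM in Week2_WT against 25.6 CPM in Day0_WT (1.56, adjusted p = 0.000796). Coq2, which attaches the side chain in the same pathway, averaged 57.1 CPM in Week2_Gata2 against 107.8 CPM in Day0_Gata2 (-0.92, adjusted p = 0.00183) and 52.1 CPM in Week2_WT against 106.8 CPM in Day0_WT (-1.04, adjusted p = 0.00159). Coq5, a methyltransferase of the pathway, was called lower for both labels (-0.84 and -0.76), as was the phosphate carrier Slc25a3 (-0.62 and -0.80). Whether the single WT calls of Coq2, Coq5 and Slc25a3 were kept without Day0_WT replicate 1 is not given. Of 22 citric acid cycle and pyruvate genes, 1 was called higher and 4 lower in Gata2 libraries, and 2 higher and 3 lower in WT libraries, the 3 lower being near the share of all genes; the 2 higher calls were lost without Day0_WT replicate 1. Idh2, the mitochondrial NADP-dependent isocitrate dehydrogenase, was called lower for both labels (-1.25 and -0.75), Pdk1 lower (-1.75 and -1.22), and Mpc2, a subunit of the pyruvate carrier, higher (0.73 and 0.66, the WT fold being 0.69 with an adjusted p of 0.0864 without Day0_WT replicate 1). Of 26 mitochondrial gene expression genes, 3 were called higher and 7 lower in Gata2 libraries and 3 higher and 9 lower in WT libraries, of which 2 and 3 were kept without Day0_WT replicate 1. These comparisons carry the same differences in sorted population and depth as those of the subunits, and their all-gene shares the same limit.

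Outside the members, the genes whose log2 CPM followed the summed mitochondrial mRNA level most closely over the 16 libraries were Gm28438, the copy of mt-Nd3 (r = 0.982), mt-Rnr2, a mitochondrial ribosomal RNA (0.952), Adra2a (0.944), the transfer RNA mt-Tp (0.938) and Impad1 (0.936). For the summed nuclear subunit level they were the mitochondrial ribosomal protein genes Mrpl39 (0.982) and Mrpl51 (0.980), and Ormdl2 (0.974), Ppib (0.974) and Unc50 (0.971). The points share library depth and cell mixture, and these values are descriptions without a test.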
